A study of Caenorhabditis elegans with 2 samples.

Results

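The regions described here are stronger candidate binding regions of the zinc finger protein ZTF-22 that lay inside protein-coding sequence, away from transcript starts. They were chosen from the 30000 candidate regions that the authors called on the pooled reads of 2 ChIP-seq replicates. A region was taken when it was among the 5000 with the highest deposited signal value and its summit fell in an annotated coding exon. Promoter windows, which reach 500 bp up and 200 bp down from each start of a protein-coding transcript, were left out. This gave 1004 regions of the 5000, in the coding exons of 921 genes. They were set against the 8060 coding-exon regions among the other 25000 candidates, and both sets were chosen by the pooled signal value, so that value describes them and tests nothing.

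The animals were whole young adult Caenorhabditis elegans of 1 transgenic strain, OP676, of mixed sex and 68 hours old, grown from L1 larvae synchronised by starvation. The strain is mutant for unc-119 (allele tm4063) and carries wgIs676, in which ztf-22 is followed by TY1, EGFP and 3xFLAG tags and which also holds a working unc-119 copy. Tagged protein was precipitated with an anti-GFP antibody, although 1 label field gives ztf-22 as the antibody. There was 1 group of 2 biological replicates and no second condition, so no test over samples was possible and every comparison is between sets of regions. The read depth of the libraries is unknown from region lists, and intervals below are exact Clopper-Pearson intervals at 95% that cover the number of regions counted and nothing else.

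In a ChIP-seq experiment, DNA that a tagged protein touches is enriched over its surroundings, and a peak caller ranks the enriched places. Proteins with zinc fingers usually bind DNA at promoters and enhancers, and in the compact genome of C. elegans these lie mostly upstream of genes or in introns. Exons code for protein, so their sequence is fixed in part by the amino acids they encode, and a region there carries that composition with it. Coding exons outside promoter windows make up 20.8% of the bases of the 6 nuclear chromosomes, which is the share that summits placed evenly over the genome would have.

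The sequences below are the 50 bases on each side of the summit of 7 of the regions, on the ce11 build and on the strand of the gene, and they show 3 features that the results return to. In dos-3, best-18, F56A11.4 and unk-1 the capitals mark TGATAA on either strand (TTATCA is its reverse complement), the word bound by GATA factors such as the intestinal factor ELT-2. In arrd-6 they mark the stop codon, and in col-152 the in-frame glycine codons of the collagen repeat. In nhr-157 they mark the reverse complement of CTGCGTCTC, a word found in 5.32% of the promoter regions of the top 5000. The windows were picked among the named regions, in part for holding such a word, so they do not show how common it was. TGATAA lay in 7.87% of the 1004 stronger regions and in 7.93% of the lower-ranked ones.
dos-3 (chrIII:835879-835979, minus strand, last coding exon): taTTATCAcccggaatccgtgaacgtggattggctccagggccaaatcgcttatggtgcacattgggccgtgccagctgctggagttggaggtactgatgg
best-18 (chrIII:10214646-10214746, plus strand, last coding exon): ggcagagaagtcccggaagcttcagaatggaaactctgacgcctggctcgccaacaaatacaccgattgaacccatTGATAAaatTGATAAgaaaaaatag
arrd-6 (chrII:11150034-11150134, plus strand, last coding exon): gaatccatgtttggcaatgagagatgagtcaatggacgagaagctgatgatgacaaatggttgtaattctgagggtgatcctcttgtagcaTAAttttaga
F56A11.4 (chrIV:552029-552129, plus strand, internal coding exon): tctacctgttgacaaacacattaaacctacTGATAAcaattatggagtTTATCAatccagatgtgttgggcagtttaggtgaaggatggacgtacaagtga
unk-1 (chrX:8022843-8022943, plus strand, internal coding exon): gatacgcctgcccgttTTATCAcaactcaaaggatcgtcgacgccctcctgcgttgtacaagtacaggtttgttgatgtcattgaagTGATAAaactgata
col-152 (chrV:10561733-10561833, plus strand, last coding exon): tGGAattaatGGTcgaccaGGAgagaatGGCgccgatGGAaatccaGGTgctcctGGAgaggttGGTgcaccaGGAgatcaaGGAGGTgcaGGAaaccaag
nhr-157 (chrV:3868575-3868675, minus strand, first coding exon): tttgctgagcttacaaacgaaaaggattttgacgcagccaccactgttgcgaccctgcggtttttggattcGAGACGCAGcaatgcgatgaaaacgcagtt

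Coding exons were scarce among the strongest candidates and grew common as the rank fell. They held 15 of the 500 strongest pooled regions (3%) and 38 of the next 500 (7.6%). The share was 17.2% in the following 1000, 21.9% in the 1000 after those and 28% at the remaining ranks down to 5000. Below rank 5000 it lay between 31.9% and 32.6% in each block of 5000 ranks, above the coding share of the genome. Over the whole top 5000 the share was 20.1% (19.0 to 21.2%), against 32.2% of the lower-ranked regions. Each replicate's own list had the same order. In replicate 1, 25.7% of the top 5000 and 31.1% of the lower ranks lay in coding exons, and in replicate 2 these shares were 19.8% and 31.2%. The 500 strongest regions of replicate 1 held 35 in coding exons (7%), and those of replicate 2 held 11 (2.2%).

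**Figure D1:**
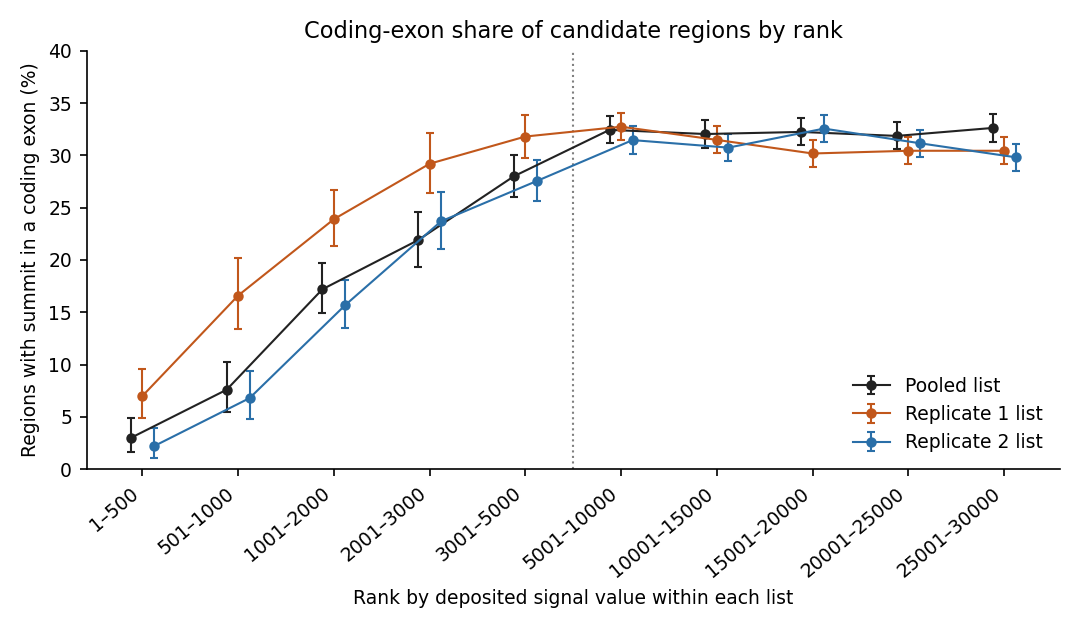
Share of regions with the summit in a coding exon outside promoter windows (y axis, percent) by rank block (x axis), for the pooled list and each replicate's list; bars are exact 95% intervals for the number of regions and the dotted line is rank 5000. The pooled share climbs from 3% among the 500 strongest regions to about 32% below rank 5000, and both replicate lists climb too.

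The division at rank 5000 did not mark a step. The signal value, which is the authors' own and in the units of their peak caller, was 67.41 at rank 5000 and 67.4 at the next rank. The last regions inside lay in hsp-6 (67.42), which encodes the mitochondrial Hsp70, and in ogt-1 (67.43), the O-GlcNAc transferase. The first ones outside lay in ndx-2 and F07A11.4, at 67.39 each. The stronger regions had values of 67.42 to 226 with a median of 76.2, and the lower-ranked ones had values of 35.67 to 67.39 with a median of 45.6. The deposited q value at rank 5000 was 0.414, and the lowest q in the pooled list was 0.00137. It was 0.048 for the icl-1 region at rank 1490 and 0.0514 for the atp-2 region at rank 1528. Most of the stronger regions had higher q values than these, with a median −log10 q of 0.608 (quartiles 0.474 to 0.906).

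The optimal list, which the authors kept after comparing replicates by the irreproducible discovery rate, held 49 of the stronger coding-exon regions. That is 4.88% of them, where the share over all regions of the top 5000 was 19%. The share was 23.4% for promoter regions of the top 5000, 18.1% for intron regions and 26.5% for intergenic regions. Seen from the optimal list, 5.15% of its 952 peaks lay in coding exons. Since the optimal list is the 952 strongest pooled regions, these shares restate the order of the pooled signal values.

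The strongest coding-exon region lay in dos-3, which encodes a secreted protein with the DOS motif of Notch co-ligands. It ranked 70 in the pooled list with a signal value of 226. It ranked 219 in replicate 1, with a value of 54.8, and 67 in replicate 2, with a value of 169, on scales that differ between the lists. The next was in best-18, of the bestrophin chloride channel family, with rank 211 in the pooled list, 76 in replicate 1 and 302 in replicate 2. The region in stdh-1, of the steroid dehydrogenase family, ranked 225 in the pooled list and 634 in replicate 2. Its rank of 48 in replicate 1 was the best there among the 1004 stronger regions. In F53F10.1 the ranks were 243 in the pooled list, 86 in replicate 1 and 558 in replicate 2. These 4 summits all lay in the last coding exon of their genes.

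The next strongest regions were spread over genes of many kinds. They lay in arrd-6 (pooled rank 248), which encodes an arrestin domain protein, in ccd-5 (250) and in pks-1 (260), a very large polyketide synthase gene, where the summit lay in coding exon 22 of 30. Then came suro-1 (272), a zinc carboxypeptidase gene, gcy-31 (275), a soluble guanylate cyclase gene, and glt-6 (277), of the glutamate transporter family. The 10 strongest regions were also the 10 whose worse rank in the 2 replicates was best, and that worse rank lay between 219 (dos-3) and 634 (stdh-1). Further down were mdt-26 (419), a Mediator subunit gene, lfe-2 (479), which encodes an inositol trisphosphate kinase, col-152 (657), a collagen gene, and cyn-5 (680), a cyclophilin gene. Among these 25 strongest regions, C42D8.9 ranked 157 in replicate 1 and 10513 in replicate 2. In the other direction, lin-12, which encodes a Notch receptor, ranked 10812 in replicate 1 and 407 in replicate 2. F57B1.6 (561) had no match in replicate 1 and ranked 477 in replicate 2.

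The strongest coding-exon regions lay near the 3′ ends of genes more often than the others. Of the 49 on the optimal list, 20 had the summit in the last coding exon (40.8%, 27 to 55.8%). That share was 23.3% (20.7 to 26.1%) over all 1004 stronger regions and 16.9% (16.1 to 17.7%) over the lower-ranked ones, beside 15.8% of the coding bases outside promoter windows when each gene is represented by its longest coding transcript. Measured to the annotated end of the gene, 27 of the 49 (55.1%, 40.2 to 69.3%) lay within 500 bp. The same was true of 237 of the 1004 (23.6%), of 1524 of the 8060 lower-ranked regions (18.9%) and of 19.2% of those coding bases. The median distance to the gene end was 434 bp for the 49, 1224 bp for the 1004 and 1452 bp for the lower-ranked regions. The 49 also lay in shorter coding sequences, with a median of 1212 bases and 6 coding exons. These medians were 1563 bases and 7 exons for the 1004, and 1674 bases and 8 exons for the lower-ranked regions. The shares are not adjusted for this.

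By rank, the excess sat at the top. The last coding exon held 7 of the 15 summits among the 500 strongest pooled regions and 13 of the 38 among the next 500. It held 26.7% of those in the following 1000, 21% in the 1000 after those and 21.8% down to rank 5000. Each replicate's own list gave the same order, read from its own ranks. In replicate 1 the last coding exon held 14 of the 35 coding-exon summits of the 500 strongest regions (40%) and 16.9% of those below rank 5000. In replicate 2 it held 5 of 11 (45.5%) and 16.5%. Among the 1000 strongest regions of replicate 1, the gene end was within 500 bp for 40 of 118 coding-exon summits (33.9%, 25.4 to 43.2%). In replicate 2 this held for 24 of 45 (53.3%, 37.9 to 68.3%). These intervals overlap, so the size of the excess is loosely known in each replicate.

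**Figure D2:**
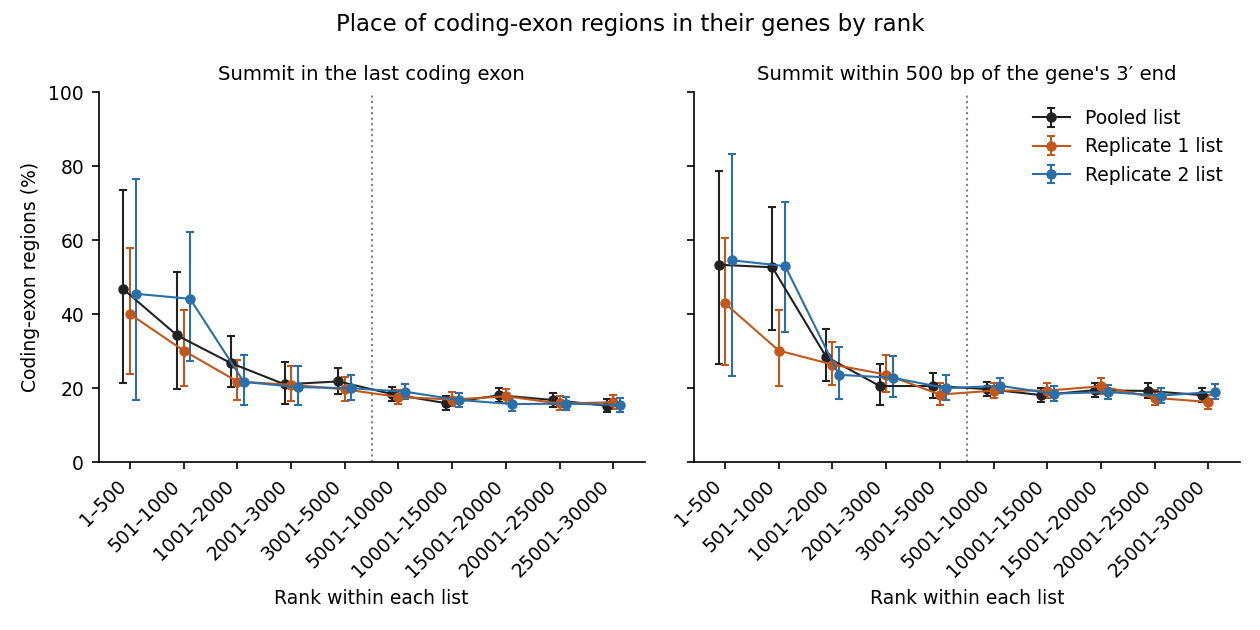
Share of coding-exon regions (y axis, percent) whose summit lies in the last coding exon (left) or within 500 bp of the annotated 3′ end of the gene (right), by rank block (x axis) in the pooled list and each replicate's list; bars are exact 95% intervals and the dotted line is rank 5000. In the pooled list the last exon holds 46.7% at ranks 1 to 500 and between 15.2 and 18.4% below rank 5000.

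Several summits lay close to the stop codon. Counted in the transcript used and with the summit's own base, 41 coding bases remained in arrd-6, 48 in best-18, 54 in glt-6, 63 in suro-1 and 64 in pgal-1. In lin-12, 45 remained, in a gene whose own nearest start lay 11023 bp upstream. In F59F4.3 the number was 24, and in F31E3.12, at rank 920, it was 19. The arrd-6 and best-18 windows printed above reach their stop codons, taa and tag. Other genes departed from this order: pks-1 had 11686 coding bases left, and the summits in lfe-2, pot-3, scrm-1 and ell-1 lay in the first coding exon. That in C42D8.9 lay in the first of 2 coding exons, but 373 bp from the gene end, with 221 coding bases left.

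No summit lay closer than 201 bp to a protein-coding start, which the choice of regions fixed. The median distance to the nearest protein-coding start was 1185 bp for the stronger regions, 1280.5 bp for the lower-ranked ones and 1085 bp for the 49 on the optimal list. The nearest start was within 500 bp for 172 of the 1004 (17.1%), against 1145 of the 8060 (14.2%), and for 9 of the 49 (18.4%). The region itself, most often 390 bp wide, reached into a promoter window in 138 of the 1004 (13.7%), against 973 of the 8060 (12.1%). Another candidate region of any rank overlapped 212 of the 1004 (21.1%), against 1291 of the 8060 (16%). The overlapping region was the stronger one for 14 of the 1004 (1.39%), against 748 of the 8060 (9.28%), an order that the ranks themselves set. Of those 14, 11 overlapped another coding-exon region and 0 a promoter region. Among the 49, 1 did, the second pot-3 region, whose summit was 292 bp from that of the first.

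Other strong regions were more often near the stronger coding-exon regions than near the lower-ranked ones. Another summit of the top 5000 lay within 1000 bp of 139 of the 1004 (13.8%), against 682 of the 8060 (8.46%), and of 15 of the 49 (30.6%). No such share was taken for other classes of the top 5000, so this does not set coding-exon regions apart from them. Of the 921 genes with a stronger region, 146 (15.9%) also had a summit of the top 5000 in their own promoter window. The share was 10.6% of the 5755 genes with a lower-ranked region and 7.56% of all 19973 protein-coding genes. These shares are not adjusted for the length of the genes.

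Exons that held a stronger region were slightly longer, with a median of 373 bases (quartiles 210 to 640.5) against 330 bases (195 to 593). The 49 on the optimal list went the other way, with a median of 233 bases. Along the coding sequence, 31.6% of the stronger regions lay in the final 25% of its length, against 27.2% of the lower-ranked ones, and 13.9% lay in the first 25%, against 16.5%. Chromosome X held 183 of the 1004 (18.2%, 15.9 to 20.8%), against 16.7% of the 8060, a difference inside the interval. On the optimal list X held 12 of 49 (24.5%, 13.3 to 38.9%).

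Support in the replicate lists was read as a summit within 100 bp. Of the 1004 stronger regions, 769 (76.6%) had a match in replicate 1, where the share over all regions of the top 5000 was 78.4%. In replicate 2, 946 (94.2%) had one, where it was 94.7%, and 720 (71.7%) had one in both, where it was 73.8%. These shares were close to those of the other strong regions. Another 49 matched in replicate 1 alone, 226 in replicate 2 alone and 9 in neither, of which 1 was in icl-1. Of the lower-ranked coding-exon regions, 44.8% had a match in replicate 1, 63.3% in replicate 2 and 22.2% in both.

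The rank of the match differed more. A match in the top 5000 of both replicates was found for 169 of the 1004 (16.8%, 14.6 to 19.3%), where the share over the whole top 5000 was 29.8%. It was 32.6% for promoter regions, 31% for intron regions and 36% for intergenic regions. Among the 720 matched in both lists, the median rank was 5225.5 in replicate 1 and 4379 in replicate 2. For promoter regions of the top 5000 these medians were 3456.5 and 2052.5. The 2 replicates ranked the 720 in unlike order, with a Spearman rho of -0.14 across regions, against 0.32 across 1056 promoter regions, 0.24 across 746 intron regions, 0.41 across 885 intergenic ones and 0.08 across 102 regions in UTRs or other exons. Below rank 5000 it was -0.13 across 1793 coding-exon regions and -0.08 across 5564 regions of all classes. These are descriptions, since all were chosen by a signal that sums both replicates, and a region weak in 1 of them had to be strong in the other to be chosen.

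**Figure D3:**
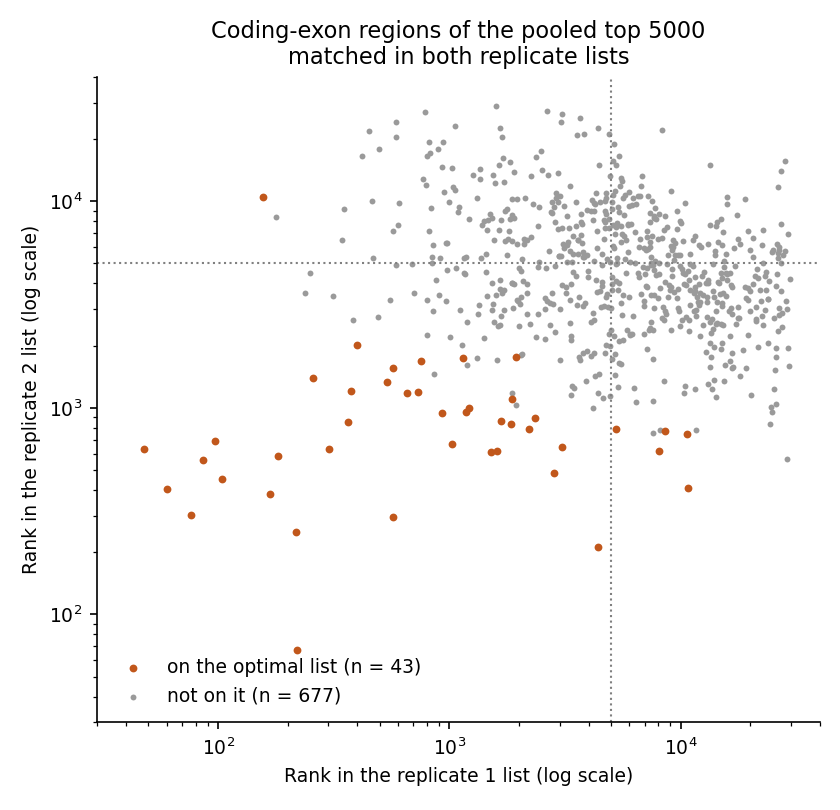
Rank in replicate 1 (x axis, log scale) against rank in replicate 2 (y axis, log scale) for the 720 coding-exon regions of the pooled top 5000 that were matched in both lists, with the 43 on the optimal list in orange; dotted lines are rank 5000. The lower left field holds 169 regions, and most of the cloud lies above or to the right of it.

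The widest disagreements paired a strong region of 1 replicate with one near the bottom of the other list. The region in tps-1, a trehalose-6-phosphate synthase gene, ranked 28961 in replicate 1 and 563 in replicate 2. In daf-36, whose product acts in dafachronic acid synthesis, the ranks were 29520 in replicate 1 and 1596 in replicate 2. In spc-1, the alpha spectrin gene, they were 29271 in replicate 1 and 1958 in replicate 2. Turned the other way, CC8.2 ranked 1599 in replicate 1 and 28979 in replicate 2, and dnj-20, a DnaJ chaperone gene, ranked 782 in replicate 1 and 26959 in replicate 2. All 5 were in the pooled top 5000, with signal values from 68.35 (dnj-20) to 105.6 (tps-1).

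A reading that does not use the pooled signal takes coding-exon regions from 1 replicate's own top 5000 and looks for them in the other. Of 1285 such regions of replicate 1, 577 (44.9%, 42.2 to 47.7%) had a match anywhere in the replicate 2 list. For all classes of region in that top 5000 the share was 55.4%, and for lower-ranked coding-exon regions of replicate 1 it was 25.1%. Of 990 coding-exon regions of replicate 2, 439 (44.3%, 41.2 to 47.5%) had a match in replicate 1, where all classes gave 55.3% and lower-ranked coding-exon regions 26.6%. A summit of the other list lies within 100 bp of 8.32% (replicate 2) and 8.48% (replicate 1) of coding bases outside promoter windows. In both directions stronger coding-exon regions were found again more often than lower-ranked ones.

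Among the other classes of replicate 1's top 5000, the matched share was 63.4% for promoter, 54.8% for intron and 61.1% for intergenic regions. In the other direction these shares were 57.2%, 53.9% and 61.9%. The gap was wider when the match had to rank in the other top 5000: 12.5% of coding-exon and 39% of promoter regions of replicate 1 did so, and 16.5% and 31.5% of those of replicate 2. These shares mix ranks, and coding-exon regions sat mostly at the lower ranks of each top 5000. Ranks from 3000 to 5000 of replicate 2 held 551 of the 990. There the matched share was 41.6% for coding-exon, 41.4% for promoter, 40.3% for intron and 45.2% for intergenic regions, with overlapping intervals. In the same block of replicate 1 it was 41.2%, 50.4%, 45% and 51.6% for these classes. From 2000 to 3000 coding-exon regions had the lowest share of these classes, at 39.7% in replicate 1 and 39.2% in replicate 2. Promoter, intron and intergenic regions of that block had 60.4%, 55.2% and 50.5% in replicate 1. In replicate 2 they had 49.45%, 52.2% and 61.7%. From 1000 to 2000 in replicate 1 the matched share was 54.8% for coding-exon, 62.1% for promoter, 49.6% for intron and 60.5% for intergenic regions. In replicate 2 these shares were 51.6%, 58%, 58.4% and 64.2%. At the very top the directions differed. All 11 coding-exon regions among the 500 strongest of replicate 2 had a match in replicate 1, and 23 of the 35 of replicate 1 (65.7%) had one in replicate 2. Over all matched regions of the 2 replicate lists, the signal values of 2524 coding-exon pairs had a Spearman rho of 0.15, against 0.44 over 2162 promoter pairs. The points of such a correlation share their libraries and differ in range, and it is given as a description.

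**Figure D4:**
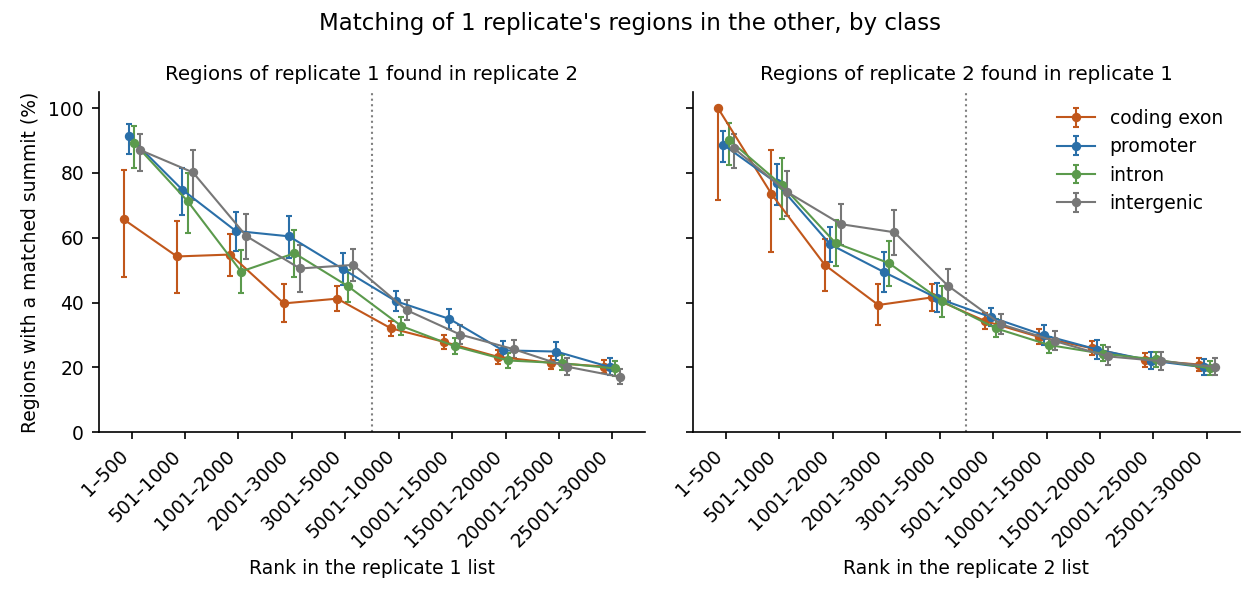
Share of regions (y axis, percent) of replicate 1 matched in replicate 2 (left) and of replicate 2 matched in replicate 1 (right), by rank block in the list they came from (x axis) and by class of region; bars are exact 95% intervals and the dotted line is rank 5000. Coding-exon regions of replicate 1 start at 65.7% in the first block, where promoter regions are at 91.3%, and from rank 5000 to 10000 they are at 32.1% and 40.4%; in the replicate 2 panel these classes are at 34.3% and 35.5% in that block.

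The stronger regions were richer in G and C, as were stronger promoter regions. The 50 bases on each side of the summit had a median G+C content of 47.5% (quartiles 42.6 to 52.5%), against 44.6% (40.6 to 49.5%) in the lower-ranked regions. Promoter regions had a median of 44.6% in the top 5000 and 40.6% below, a difference at least as large. Coding bases outside promoter windows had 42.8% over the genome. Content was not highest at the top: the median was 44.6% in the 500 strongest pooled regions, 45.5% in the next 500 and 49.5% in the following 1000, and it was 46.5% at ranks from 3000 to 5000. The 169 regions ranked in the top 5000 of both replicates had a median of 48.5%. The part of base composition in the ranking was not tested.

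The composition was visible in the encoded protein. Over 30817 codons around the stronger summits, 7.62% coded for proline, 7.76% for glycine and 8.89% for alanine, against 6.08%, 6.34% and 7.48% of 243185 codons around the lower-ranked ones. Lysine codons were 4.97% in the stronger and 5.6% in the lower-ranked regions, glutamate codons 5.59% and 6.28%, and isoleucine codons 4.86% and 5.39%. Alanine, glycine and proline codons begin with pairs of G and C, while those of lysine and isoleucine begin with A. Not all amino acids sorted this way, since glutamate codons begin with G. Arginine codons, which include those beginning with CG, were 5.13% in the stronger and 5.39% in the lower-ranked regions. Glutamine codons, which begin with CA, were 4.71% and 4.41%. G or C content was higher in the stronger regions by 3.25 percentage points at the first codon position, 3.76 at the second and 1.86 at the third.

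Collagen genes were frequent among the genes with a stronger region. Cuticle collagens are short genes whose protein is a long run of Gly-X-Y repeats rich in proline, and C. elegans adults express many of them in the epidermis. A stronger region lay in 35 of 175 collagen genes (20%), against 4.61% of all protein-coding genes. Since collagen genes are short, this was 246 regions per Mb of their coding bases outside promoter windows, against 48 per Mb over all genes. Of the 155 coding-exon regions in collagen genes at any rank, 22.6% were in the top 5000, against 11.1% over all genes. In the replicates' own lists, 33 collagen genes had a coding-exon region in the top 5000 of replicate 1 and 40 in that of replicate 2, with 19 genes in both. Those 19 are 57.6% of the 33 and 47.5% of the 40. Over genes of all kinds 286 were shared, which is 24.4% of 1171 in replicate 1 and 31.2% of 918 in replicate 2. Collagen genes had such a region more often to begin with, 18.9% in replicate 1 and 22.9% in replicate 2. Over all genes this was 5.86% and 4.6%. The shared parts are not adjusted for this, so they do not show that collagen genes replicated better.

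The strongest collagen region was that of col-152, with 12 in-frame glycine codons in the window printed above. It ranked 657 in the pooled list, 374 in replicate 1 and 1200 in replicate 2, and was the collagen region on the optimal list. Then came col-171, with rank 1108 in the pooled list, 2603 in replicate 1 and 2151 in replicate 2, and col-91, with 1189, 3389 and 1276. The summit in dpy-13, whose mutants are short and fat, ranked 1293 and had no match in replicate 1. The one in sqt-1, whose mutants roll or are squat, ranked 588 in replicate 1 and 24142 in replicate 2. All 35 had a match in replicate 2 and 21 had one in replicate 1, so 14 (40%) matched in replicate 2 alone, against 21.9% of the 969 stronger regions in other genes. Near-identical collagen genes can share reads, and 36-base words also found elsewhere in the genome made up 29.3% of the words in col-185, 12.1% in col-119, 5.35% in col-43 and 4.79% in dpy-13. In 30 of the 35 there were none.

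The collagen regions had a median G+C content of 59.4%, and those of lower rank in collagen genes had 58.4%. Of the codons around the 35 summits, 29.4% coded for glycine and 22.2% for proline. Without collagen genes, the stronger regions had a median G+C content of 46.5%, against 44.6% for the lower-ranked ones, and the glycine shares were 6.94% and 6.02%, the proline shares 7.07% and 5.83%, and the alanine shares 8.81% and 7.46%. The word CCAGGA, which spells a proline and a glycine codon and was picked after its counts were seen, lay in 31 of the 35 collagen windows. It also lay in 89 of the 120 windows of lower-ranked regions in collagen genes (74.2%), so it was common in collagen genes at any rank. In other genes it lay in 8.46% of the stronger and 5.71% of the lower-ranked windows.

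Other gene families are given by how many of their coding-exon regions reached the top 5000, beside 11.1% over all genes. In the replicates' own lists the share over all genes was 14.2% in replicate 1 and 11.3% in replicate 2. Most lists hold few regions, and several changed sides of the share over all genes between lists. In the heat shock proteins and chaperonins, 6 regions in 5 of 30 genes made up 20.7%, with 26.1% in replicate 1 and 20.7% in replicate 2. The strongest were in hsp-60 (rank 2018), the mitochondrial chaperonin, hsp-110 (2540) and hsp-1 (2925), which encodes a constitutive Hsp70 and ranked 178 in replicate 1 and 8430 in replicate 2. In the neuropeptide and insulin genes there were 4 regions in 4 of 140 genes (21.1%), led by nlp-76 (2376), but the share was 28.6% in replicate 1 and 5% in replicate 2. The ceh homeobox genes had 3 of 13 regions (23.1%), led by ceh-81 (3715), and 5.26% in replicate 1 and 7.69% in replicate 2. The ztf zinc finger genes had 3 of 11 (27.3%, with 13.3% in replicate 1 and 21.4% in replicate 2), in ztf-22 (1441), ztf-7 (1605) and ztf-6 (3589), and that in ztf-22 lies in the sequence of the transgene.

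The ribosomal protein genes had 3 regions in 77 genes (14.3%), led by rps-17 (1760), with 26.1% in replicate 1 and 15.4% in replicate 2. The oxidative phosphorylation genes had 3 regions in 27 genes (16.7%), led by atp-2 (1528), with 0% in replicate 1 and 25% in replicate 2. The aminoacyl-tRNA synthetases had 0 of 23 coding-exon regions in the pooled top 5000, but 12.5% in replicate 1 and 9.09% in replicate 2. The actins and tubulins had 0 of 11, and 12.5% in replicate 1 and 9.09% in replicate 2. Vitellogenin genes, whose products are yolk proteins of the intestine, had 2 regions, in vit-6 (3995) and vit-2 (4204). This was 12.5% of theirs, with 38.9% in replicate 1 and 18.2% in replicate 2, and 44.5% of the 36-base words in that of vit-2 were found elsewhere. The major sperm protein region in msp-63 (4971), with 40.6% such words, was at the edge of the set.

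Large, structural genes had regions in many members, counts that are not adjusted for coding length. Over all protein-coding genes, 4.61% had a stronger region. The extracellular matrix genes had 10 regions in 8 of 11 genes, led by lam-3 (1375), a laminin gene. This was 80.3 regions per Mb of coding bases, against 48 per Mb over all genes, and 15.2% of their coding-exon regions were in the top 5000, with 20.5% in replicate 1 and 11.1% in replicate 2. Muscle protein genes had 9 regions in 7 of 22 genes, led by ketn-1 (1242), or 55.8 per Mb. This was 9.28% of their coding-exon regions, with 10.1% in replicate 1 and 9.57% in replicate 2, below the share over all genes in each list. The large cytoskeletal genes had 12 in 9 of 23, or 76.1 per Mb, led by unc-70 (1377), which encodes beta spectrin. This was 14% of theirs, with 14.9% in replicate 1 and 15% in replicate 2. The large family of chemosensory receptors had 17 regions in 1171 genes (7.62%), with 7.17% in replicate 1 and 8.13% in replicate 2, below the share over all genes in each list. The C-type lectins had 8 in 240 genes (7.92%), with 11.8% in replicate 1 and 8.33% in replicate 2. The nuclear hormone receptors had 10 in 269 genes (8.47%), with 12.1% in replicate 1 and 11.9% in replicate 2. The F-box and BATH genes had 1 region in 395 genes, in fbxc-50 (1795), which was 1.41% of their 71 coding-exon regions, while the share was 5.19% in replicate 1 and 8.2% in replicate 2.

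**Figure D5:**
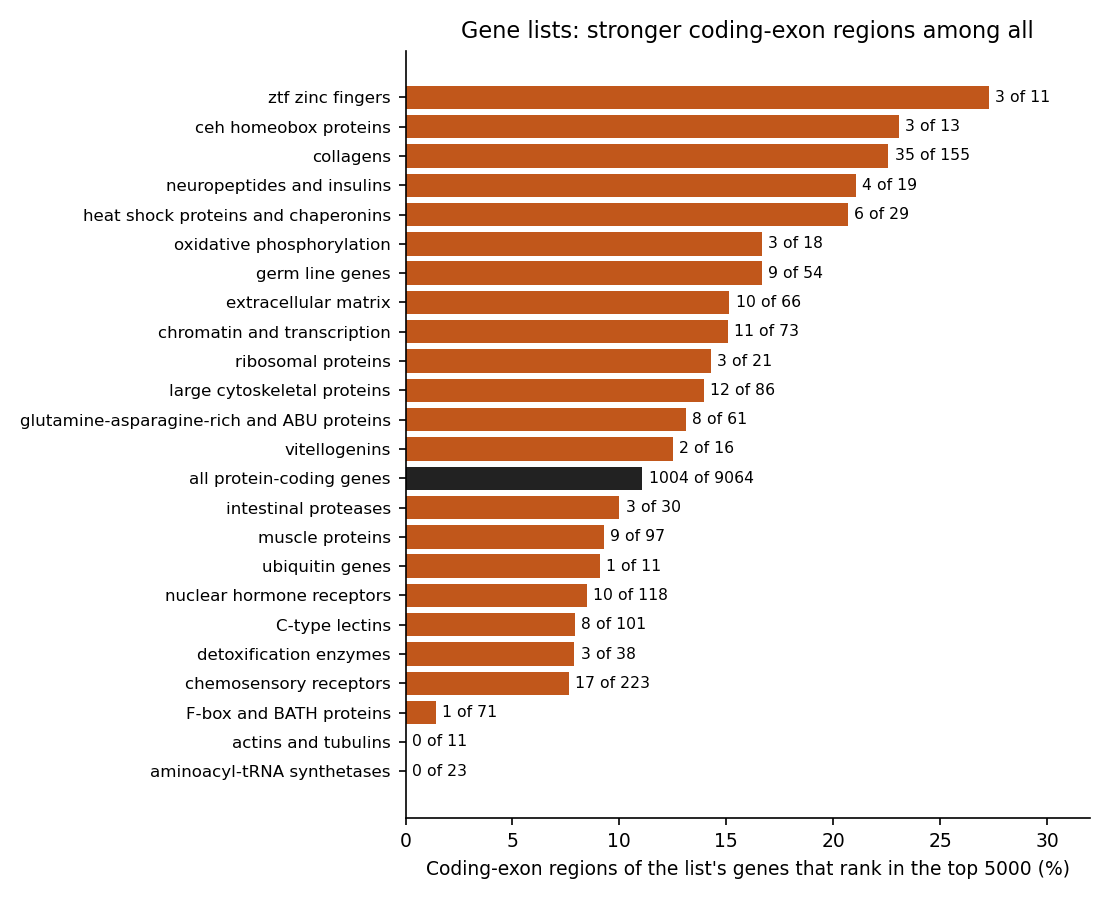
Percent of each list's coding-exon regions that rank in the pooled top 5000 (x axis), for the lists with 10 or more coding-exon regions at any rank, with the 2 counts beside each bar and all protein-coding genes in black. Collagens stand at 35 of 155 and F-box and BATH proteins at 1 of 71, beside 1004 of 9064 over all genes; lists with few regions move by several points with each region, and the F-box and BATH share was 5.19% in the replicate 1 list and 8.2% in the replicate 2 list.

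A few genes held several stronger regions. Of the 921 genes, 70 (7.6%) had 2 or more, of which 7 had 3 and another 3 had 4. Those with 4 were rbc-1, a rabconnectin gene, icl-1, the bifunctional enzyme of the glyoxylate cycle, and cpt-1, a carnitine palmitoyltransferase gene. In icl-1 the ranks were 1490, 3217, 3403 and 4809, and in cpt-1 they were 2199, 3233, 3534 and 4701. Among those with 3 was acs-2 (1572, 3263 and 4301), an acyl-CoA synthetase gene that like cpt-1 serves fatty acid oxidation. The others with 3 were pot-3, hpo-34, mtm-3, Y56A3A.30, set-16, which encodes a histone methyltransferase, and ifc-2, an intermediate filament gene of the intestine. The regions of pot-3 (749, 879 and 2184) lie side by side, and the hpo-34 regions share 1 exon of 4539 bases, so such regions are not separate observations. The 7.6% has no share of other regions beside it and is not adjusted for gene length.

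The GATA-type word TGATAA was no more common in the stronger coding-exon regions than in the lower-ranked ones. It was sought on both strands within 50 bases of the summit and lay in 79 of the 1004 stronger regions (7.87%) and in 7.93% of the lower-ranked ones. Promoter regions held it in 17.3% of those in the top 5000 and 10.7% of those below. Of the 49 coding-exon regions on the optimal list 8 held it (16.3%, with an interval of 7.3 to 29.7% that includes the share of the lower-ranked regions), among them dos-3, best-18, F56A11.4 and unk-1, with 2 copies in each of the last 3. Other members with the word were nhr-17 (1255) and hda-4 (1905), a histone deacetylase gene.

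CTGCGTCTC lay in 1 stronger region, in the nuclear hormone receptor gene nhr-157 (3545), and in 0.137% of the lower-ranked ones, whereas 5.32% of promoter regions of the top 5000 held it. CACGTG, an E-box, lay in 4.18% of the stronger regions, 3.4% of the lower-ranked ones and 5.04% of the promoter regions. TGACGTCA lay in 1.39%, 0.844% and 0.829% of the same sets, GAGAGAGA in 0.598%, 0.248% and 3.11%, and TTTTTTTT in 1.89%, 1.5% and 4.63%. CCCCCCCC lay in 0 of the 1004 stronger regions, with an exact interval up to 0.367%, and in 0.414% of the promoter regions. These are matches of letters and show no binding.

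Repeated sequence was uncommon. More than 10% of the 36-base words of the region were found elsewhere in the genome for 19 of the 1004 (1.89%), against 2.69% of the lower-ranked regions, and more than 90% for 0 of either set. A tRNA, snoRNA, snRNA or miRNA gene lay within 500 bp of 14 (1.39%, 0.8 to 2.3%), against 1.04% of the lower-ranked regions. The share was 2.74% in the pooled top 2500, and 2.02% in the replicate 1 list and 2.12% in the replicate 2 list.

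The sequence of the transgene is part of the genome too, since it carries ztf-22. Within 25 kb of ztf-22 (II:13279767 to 13285829) there were 18 regions of the top 5000, or 321 per Mb, against 49.9 per Mb over the genome. Of these, 3 lay in coding exons: 1 in ztf-22 itself, with rank 3448 in replicate 1 and 1243 in replicate 2, and 2 in Y48C3A.5 (1020 and 1336), whose span encloses ztf-22. Extra copies of this stretch and bound protein cannot be told apart there. Around unc-119, also carried by the transgene, there was 1 region of the top 5000 and 0 in coding exons. Without these neighbourhoods the coding-exon share of the top 5000 was 20.1%.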

How the data were processed

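ChIP-seq region lists of 2 biological replicates of 1 group were used. The authors deposited lists of 30000 candidate regions on ce11, 1 per replicate and 1 from pooled reads, and a list of 952 optimal peaks. The deposited descriptions name ChIP alignments and 1 control alignment as the input. Caller, aligner and filters are not stated there or in the labels. The signal value comes from the authors' caller, and the deposited significance is −log10 of the q value. Read depth is unknown.

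Summits, counted from 1, were placed by the Ensembl WBcel235 annotation, and sequence came from the RefSeq FASTA of the same build. Summits within 100 bp were matched. Gene lists were drawn by gene name. Shares have exact Clopper-Pearson intervals at 95%. Python 3.11.15, NumPy 2.4.6, SciPy 1.17.1 and Matplotlib 3.10.9 were used. Placing and matching were tested on simulated data.

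The regions, gene lists and motifs were chosen with earlier results of these data known. Named were the 25 strongest regions, the 10 with the best worse rank and the 5 with the widest rank difference between replicates, up to 3 per gene list, genes with 3 or more regions, those at the division and those near the transgene's genes. The comparisons of gene ends, overlapping regions, collagen subsets and CCAGGA, and the naming of other collagen genes and of other regions with few coding bases left, were added after values were seen. Alternatives were another division rank, promoter window, matching distance, window and word length, each replicate's own list, and the transgene's neighbourhood left out.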

Additional observations from a re-analysis of the deposited data

How the results depend on the processing

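Dividing the list at rank 2500 gave a coding-exon share of 13.1%, matches in both replicates for 77.1%, matches of replicate 1 regions in replicate 2 for 50.6%, a G+C difference of 3.96 points, a median exon of 334.5 bases, repeated words in 2.74% and short non-coding genes near 2.74%, with several regions in 4.47% of the genes. Dividing at rank 10000 gave 26.3%, 59.7%, 37.7%, 1.98 points, 1.52% near short non-coding genes and 13.5% of genes with several regions. A promoter window of 1000 bp upstream to 500 bp downstream gave a coding-exon share of 15.4%, 1.55% near short non-coding genes and 19.8% on X, and left 37 of the 49 optimal peaks in coding exons. Matching within 50 bp gave 46.4% matched in both and 27.6% of replicate 1 in replicate 2, and within 200 bp 88.4% and 59.3%. Words of 50 bases gave 1.29% of regions with repeats, 200 bp in place of 500 bp gave 1.2% near short non-coding genes, and without the transgene's neighbourhood 0 regions were left there. Leaving out collagen genes gave a G+C difference of 1.98 points. In the lists of single replicates, the coding-exon share was 19.8 to 25.7%, the G+C difference 1.98 to 2.97 points, the share near short non-coding genes 2.02 to 2.12%, the X share 16.7 to 18.7% and the gene-end share of the 1000 strongest 33.9 to 53.3%. The causes were not tested. A threshold of 3 on the −log10 q value of the optimal peaks left 0 peaks, so it gave no value. No paired analysis was possible because there was 1 group. Region lists without read counts limit every statement to ranks and positions.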
